A study of Homo sapiens with 9 samples.

Results

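Tubulins are the building blocks of microtubules, and stathmins are small proteins that bind free tubulin and oppose microtubule assembly. Transcript levels of 10 of these genes were followed in Huh7, a hepatocellular carcinoma cell line, after knockdown of either form of IMP dehydrogenase. They were the α-tubulins TUBA1A, TUBA1B and TUBA1C, the β-tubulins TUBB, TUBB2A, TUBB2B, TUBB4B and TUBB6, and the stathmins STMN1 and STMN3, taken by symbol from the 58684 genes of the deposited count table. All 10 passed the filter on low counts, as did 17396 genes in total. The 10 genes were picked with their fold changes in these libraries already known, so their values are given as a description with standard errors and without p-values. The gene lists examined beside them were also chosen with earlier results of these data known. Adjusted p-values printed for list genes are therefore not free of that choice.

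The 9 RNA-seq libraries fell into 3 groups of 3, called biological replicates by the submitters. Cells of each group were infected with a lentivirus carrying a short hairpin RNA and selected with puromycin. shControl cells carried a control hairpin, shIMPDH1 cells one against IMPDH1 and shIMPDH2 cells one against IMPDH2, so infection and drug were common to the 3 groups. Each group was a selected pool of a single cell line, and the number of hairpins per target was not given in the sources used here. Whether the replicates came from separate infections was not given either, so the spread between libraries may be partly technical.

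IMP dehydrogenase is the rate-limiting enzyme of guanine nucleotide synthesis, and both tubulins of the αβ dimer carry GTP, which the β subunit hydrolyses as the microtubule grows. Cells make several isotypes of each subunit from separate genes, and they adjust tubulin mRNA to the pool of free tubulin: when free dimers accumulate, the factor TTC5 recognises the first residues of a nascent tubulin chain on the ribosome, and SCAPER and the CCR4-NOT deadenylase then degrade the mRNA being translated. STMN1 is the broadly expressed stathmin of dividing cells, and STMN3 is best known from neurons.

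The coding starts are shown first because they encode the first residues of the chain, which TTC5 recognises. Each line gives the first 24 coding bases of the principal transcript in GENCODE release 29, 5′ to 3′, and the capitals mark the first 12.
TUBA1A: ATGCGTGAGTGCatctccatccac
TUBA1B: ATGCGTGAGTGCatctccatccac
TUBA1C: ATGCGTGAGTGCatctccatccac
TUBB: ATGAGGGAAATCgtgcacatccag
TUBB4B: ATGAGGGAAATCgtgcacttgcag
TUBB6: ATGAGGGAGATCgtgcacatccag
TUBB2A: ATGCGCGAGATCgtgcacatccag
TUBB2B: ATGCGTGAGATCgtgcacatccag
STMN1: ATGGCTTCTTCTgatatccaggtg
STMN3: ATGGCCAGCACCatttccgcctac
The 3 α-tubulin genes began with the same 24 bases. TUBB and TUBB4B shared their first 12 bases with each other, and TUBB6 shared its 12 with TUBB3 and TUBB8. The first 12 bases of the β-tubulin members differ only in codons for the same residues, so these groups describe bases and not the chain. Among 13389 coding genes compared, no gene other than a tubulin began with the 12 bases of any of the 8 tubulin members.

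In GRCh38 coordinates the α-tubulin genes lie side by side on chromosome 12: TUBA1B at chr12:49127782-49131397 and TUBA1A at chr12:49184796-49189324, both on the minus strand, and TUBA1C at chr12:49188736-49274603 on the plus strand. The 5′ ends of TUBA1A and TUBA1C overlap. TUBB2A (chr6:3153669-3157526) and TUBB2B (chr6:3224261-3231730) are neighbours on the minus strand, 66734 bases apart. TUBB (chr6:30720201-30725426), TUBB4B (chr9:137241213-137243707) and TUBB6 (chr18:12307669-12344320) stand elsewhere on plus strands. STMN1 (chr1:25884181-25906991) and STMN3 (chr20:63639705-63657682) are both on the minus strand.

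Libraries held 44560837 to 58370328 counts, of which the 10 genes took 0.526% to 0.625%. In the same libraries IMPDH1 fell from a mean of 62.7 to 24.5 CPM (counts scaled to library size) in shIMPDH1, a log2 change of −1.36. IMPDH2 fell from 228 to 109.7 CPM in shIMPDH2, a log2 change of −1.05. The form not targeted rose, IMPDH2 to 274 CPM in shIMPDH1 (log2 0.27) and IMPDH1 to 70.3 CPM in shIMPDH2 (log2 0.17). Both forms summed to 289 to 292 CPM in shControl, 296 to 302 in shIMPDH1 and 176 to 183 in shIMPDH2. Their summed level was thus lower than control in shIMPDH2 alone. The first shControl library differed most from its group, with a mean chi-square per gene of 5.81 and 7.00 against the other two, which differed from each other by 1.94. Without it, the members' calls against shControl given below were kept, and TUBA1B was called as well in shIMPDH1. Of the 12 hepatocyte markers examined, 12 passed the filter, with ALB at a mean of 8801 CPM in shControl. CPM values below were scaled with TMM factors, and 3 counts corresponded to 0.0519 to 0.0674 CPM.

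Most of the 10 genes were lower after knockdown of either enzyme, by modest amounts, with STMN3 as the large exception. In shIMPDH1 against shControl, 9 of the 10 were called at an adjusted p under 0.05, where 43.4% of all genes tested were called. Of these, 2 were higher (TUBB2A and STMN3, beside 20.6% of all genes) and 7 were lower (beside 22.8%). In shIMPDH2 against shControl, 8 of 10 were called beside 38.4% of all genes, with 0 higher (18.6%) and 8 lower (19.9%). TUBA1B was called in neither comparison, and TUBB2A not in the second. Past a 1.5-fold change the calls came down to TUBB6 and STMN3 in shIMPDH1 (7.93% of all genes), to TUBB2B and STMN3 in shIMPDH2 (6.74%), and to STMN3 between the knockdowns (8.03%). The called genes were also those whose libraries did not overlap between the groups compared, which held for 51.7% of all genes in shIMPDH1, 46.7% in shIMPDH2 and 51.5% between the knockdowns.

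The median log2 change of the 10 genes was −0.216 in shIMPDH1 and −0.217 in shIMPDH2, where the median over all genes was 0.003 and 0.006. Between the 2 knockdowns, 8 of the 10 were called (44.0% of all genes), TUBB, TUBA1C and TUBB6 higher in shIMPDH2 (21.7%) and TUBB2A, TUBB2B, TUBB4B, STMN1 and STMN3 lower (22.2%). Nothing is read from these counts, since the genes were chosen on the same contrasts, and both knockdown comparisons share the 3 shControl libraries.

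**Figure D1:**
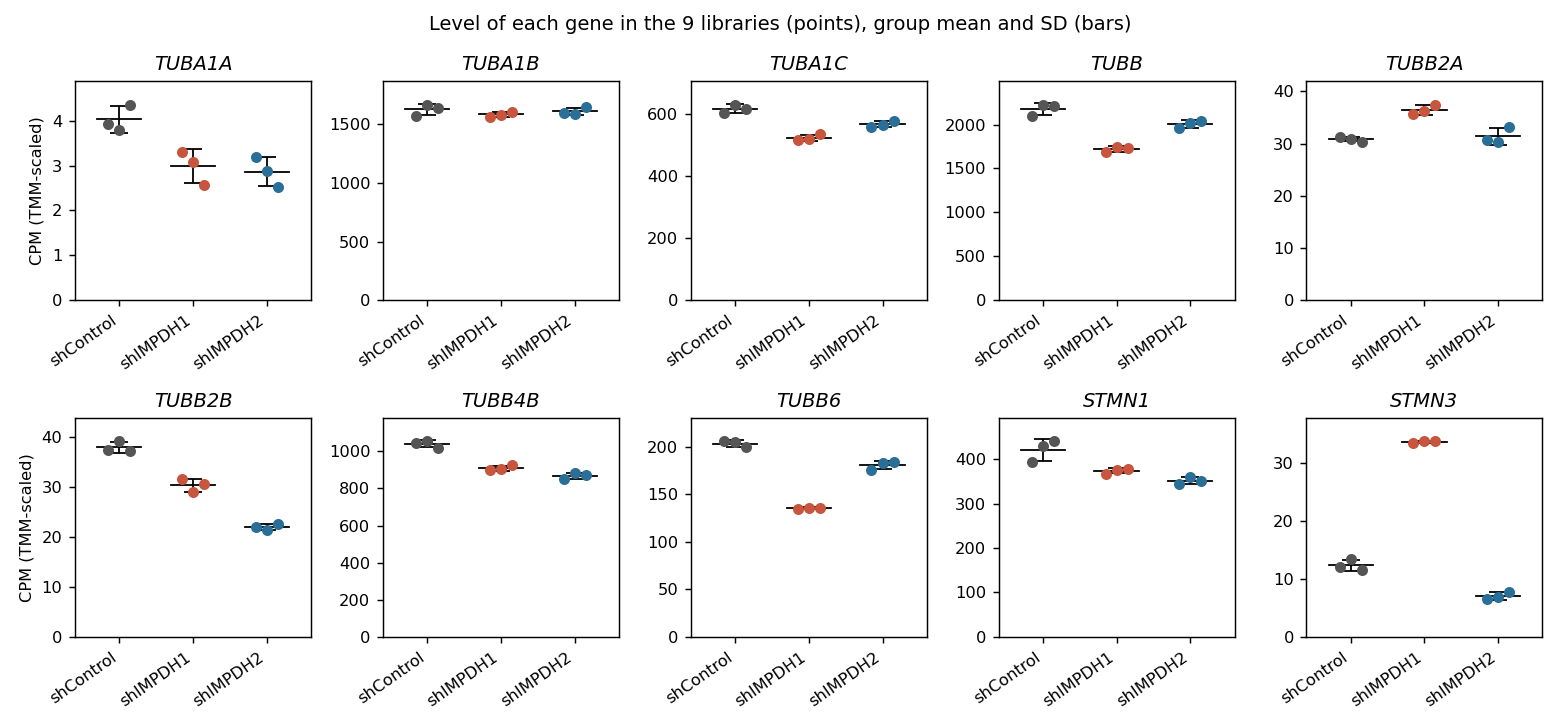
Level of each of the 10 genes in CPM (vertical axes, from 0) in the 3 shControl, 3 shIMPDH1 and 3 shIMPDH2 libraries, with points for libraries and bars for the group mean and SD. The TUBB6 libraries of shIMPDH1 sit at 135 to 136 CPM, below those of shIMPDH2 at 176 to 184, and STMN3 is at 33.4 to 33.7 CPM in shIMPDH1 and at 6.45 to 7.69 in shIMPDH2.

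In 7 of the 10 genes the 3 groups separated completely, with no overlap between any 2 groups of libraries, a pattern seen in 19.3% of all genes tested. TUBA1C, TUBB and TUBB6 were lowest in shIMPDH1. TUBB2B, TUBB4B, STMN1 and STMN3 were lowest in shIMPDH2. The remaining 3 were TUBA1A, lower in both knockdowns alike, TUBA1B, with overlapping groups, and TUBB2A, higher in shIMPDH1 alone. In bulk RNA, fewer cells with a transcript and less of it per cell cannot be told apart.

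TUBA1B, the main α-tubulin of these cells, stood at 1575, 1669 and 1640.0 CPM in shControl, 1565, 1582 and 1609 in shIMPDH1, and 1599, 1592 and 1646 in shIMPDH2. The groups overlapped, and the log2 change was −0.04 (SE 0.025) in shIMPDH1 and −0.01 (SE 0.025) in shIMPDH2. Without the first shControl library the change in shIMPDH1 was −0.06 and was called.

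TUBA1C, the second α-tubulin by level, was at 600.2, 629 and 616 CPM in shControl, 515, 518 and 533 in shIMPDH1, and 558, 563 and 577 in shIMPDH2. The 3 groups did not overlap and shIMPDH1 was lowest. The log2 change was −0.24 (SE 0.025) in shIMPDH1 and −0.12 (SE 0.025) in shIMPDH2, and shIMPDH2 exceeded shIMPDH1 by 0.12 (SE 0.025).

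TUBA1A, an α-tubulin abundant in the developing brain, was scarce here. It measured 3.93, 3.79 and 4.36 CPM in shControl, 3.30, 3.08 and 2.56 in shIMPDH1, and 3.18, 2.88 and 2.53 in shIMPDH2. Both knockdowns lay below the 3 control libraries and overlapped each other. The log2 change was −0.44 (SE 0.12) in shIMPDH1 and −0.48 (SE 0.12) in shIMPDH2, on 120 to 219 counts per library.

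The α-tubulin values carry a limit from sequence identity. The coding sequence of TUBA1A is 97.2% identical to that of TUBA1B, which in turn is 96.8% identical to TUBA1C with a shared run of 326 bases. Of the 50-base stretches of their transcripts, 22.1% in TUBA1A, 25.6% in TUBA1B and 15.6% in TUBA1C also occur in another gene. How reads from such stretches were assigned was not given in the sources used here, so a small number for TUBA1A beside a large one for TUBA1B is uncertain. Opposite-strand exons cover 36.6% of the TUBA1B exon bases, 25.0% of TUBA1C and 14.3% of TUBA1A. The library kit keeps the strand, and whether the counting used it was not given.

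TUBB, the most abundant β-tubulin, was at 2099.8, 2229 and 2212 CPM in shControl, 1685, 1744 and 1734 in shIMPDH1, and 1956, 2023 and 2043 in shIMPDH2. The groups did not overlap, and the drop was deeper in shIMPDH1. The log2 change was −0.34 (SE 0.026), a level lower by 1.27-fold, in shIMPDH1 and −0.12 (SE 0.026) in shIMPDH2. The difference between the knockdowns was 0.22 (SE 0.026).

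TUBB6 is a broadly expressed, less abundant β-tubulin. Its libraries gave 206, 205 and 199.5 CPM in shControl, 135, 136 and 136 in shIMPDH1, and 176, 183 and 184 in shIMPDH2. All 3 groups were apart, and the shIMPDH1 libraries were nearly identical (SD 0.119 CPM, n = 3). The log2 change of −0.59 (SE 0.026) in shIMPDH1 was the largest decrease among the tubulin members in that comparison, and that in shIMPDH2 was −0.17 (SE 0.025). TUBB6 shares 0.4% of its 50-base stretches with other genes, so near-identical copies bear little on it. Opposite-strand exons, those of AFG3L2, cover 20.3% of its exon bases.

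TUBB4B, an isotype of many tissues that is also prominent in cilia, measured 1048, 1055 and 1021 CPM in shControl, 897, 905 and 924 in shIMPDH1, and 852, 882 and 870.3 in shIMPDH2. Both knockdowns were below control, with log2 changes of −0.20 (SE 0.024) in shIMPDH1 and −0.26 (SE 0.024) in shIMPDH2. The gap between the knockdowns, −0.07 (SE 0.024), lost its call when library totals replaced TMM factors (−0.04). It also lost it without shControl library 2 (−0.06), shIMPDH1 library 2 (−0.07) or 3 (−0.05), or shIMPDH2 library 1 (−0.05) or 3 (−0.07).

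The TUBB4B promoter is printed because it holds 3 copies of CCAAT, the core of the site for the factor NF-Y. The stretch is chr9:137241037-137241212 on the plus strand of GRCh38.p14, 176 bases upstream of the annotated gene from the RefSeq promoter table, with the motif in capitals.
TUBB4B promoter: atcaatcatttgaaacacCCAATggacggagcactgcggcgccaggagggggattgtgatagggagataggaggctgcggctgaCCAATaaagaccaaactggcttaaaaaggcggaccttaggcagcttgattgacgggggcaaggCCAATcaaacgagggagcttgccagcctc
The motif searched was CCAAT on either strand, read as CCAAT or ATTGG, in the 250 bases before each start, and both readings were counted where they overlapped. It occurred in at least 1 window of 7 of the 10 genes, beside 37.0% of 27305 genes, and 3 or more copies occurred in 2.93% of 35116 windows. TUBA1B, TUBB2A and STMN3 had none in their windows. A match describes these letters and says nothing of binding.

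TUBB2A and TUBB2B are nearly the same gene in sequence, and their values went different ways. TUBB2A was at 31.3, 30.9 and 30.4 CPM in shControl, 35.7, 36.2 and 37.5 in shIMPDH1, and 30.6, 30.3 and 33.2 in shIMPDH2. It was higher in shIMPDH1 than in the 6 other libraries and the only tubulin member with a call in that direction, with a log2 change of 0.24 (SE 0.041), against 0.02 (SE 0.041) in shIMPDH2.

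TUBB2B was at 37.3, 39.1 and 37.2 CPM in shControl, 31.5, 28.9 and 30.5 in shIMPDH1, and 21.9, 21.3 and 22.6 in shIMPDH2. The groups formed 3 steps without overlap. The log2 change was −0.32 (SE 0.041) in shIMPDH1 and −0.79 (SE 0.043) in shIMPDH2, the latter the largest decrease among the tubulin members in either comparison. The difference between the knockdowns was −0.46 (SE 0.044). Their coding sequences are 98.1% identical with a shared run of 725 bases, and 58.7% of the 50-base stretches of TUBB2A and 47.9% of those of TUBB2B occur in another gene. How reads from these stretches were divided between them was not given, so the values of both are uncertain.

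Rows named as tubulin or stathmin pseudogenes took few reads. There were 41 such rows, 16 with any count, and their sum was 0.303% to 0.433% of the tubulin members' counts.

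**Figure D2:**
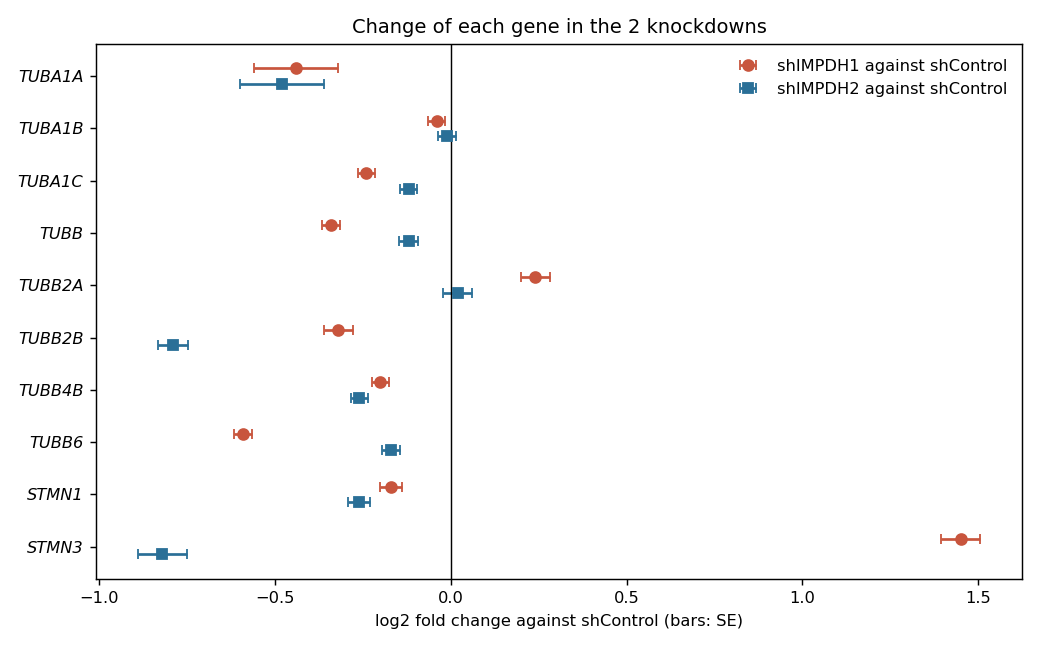
log2 fold change of each gene against shControl (horizontal axis) in shIMPDH1 (circles) and shIMPDH2 (squares), with bars of 1 SE. TUBB6 lies at −0.59 in shIMPDH1 and −0.17 in shIMPDH2, TUBB2B at −0.32 and −0.79, and STMN3 on opposite sides of 0 at 1.45 and −0.82.

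STMN1, which sequesters tubulin dimers and is switched off by phosphorylation as cells enter mitosis, stood at 394, 431 and 441 CPM in shControl, 368, 376 and 379 in shIMPDH1, and 344, 360.0 and 352 in shIMPDH2. Both knockdowns were below all control libraries, the first control library being the nearest to them. The log2 change was −0.17 (SE 0.031) in shIMPDH1 and −0.26 (SE 0.031) in shIMPDH2, and −0.22 and −0.31 with that control library left out. The difference between the knockdowns, −0.09 (SE 0.031), lost its call with library totals (−0.06) and without the same single libraries as for TUBB4B (−0.07 to −0.09).

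STMN3 gave the widest contrast of the set. It measured 12, 13.4 and 11.5 CPM in shControl, 33.4, 33.7 and 33.7 in shIMPDH1, and 6.45, 6.93 and 7.69 in shIMPDH2. The knockdowns lay on opposite sides of control, with every library of each group apart from the others. The log2 change was 1.45 (SE 0.056), a 2.73-fold increase, in shIMPDH1 and −0.82 (SE 0.069), a 1.76-fold decrease, in shIMPDH2, and the knockdowns differed 4.80-fold. Of the 50-base stretches of STMN3, 0.7% occur elsewhere, and no opposite-strand exon covers it.

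Neighbouring genes of STMN3 on chromosome 20 did not show the same values. GMEB2 had log2 changes of −0.03 and −0.06 in shIMPDH1 and shIMPDH2, and ARFRP1 had 0.02 and −0.05. RTEL1, scarce at a mean log2 CPM of 0.34, had 0.44 and 0.35, and ZGPAT had 0.19 and 0.06, none of them called. The read-through RTEL1-TNFRSF6B, which overlaps RTEL1, had 0.35 in shIMPDH1, not called, and rose by 0.43 in shIMPDH2 (adjusted p = 0.0279). The estimates for RTEL1, ZGPAT and the read-through were positive in both knockdowns, though only that of the read-through in shIMPDH2 was called. The ZGPAT estimate in shIMPDH2 lay within its SE of 0.0802. STMN3 was above control in shIMPDH1 and below it in shIMPDH2. The part of the region in the STMN3 values was not tested.

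Because STMN3 is best known from neurons, 16 neuronal markers were examined beside it. Their summed level was 25.9 to 26.6 CPM in shControl, 31.4 to 32.4 in shIMPDH1 and 23.4 to 24.1 in shIMPDH2, and 11 or 12 of the 16 were under 1 CPM in each group. The count was 0 in all libraries for NEFM, RBFOX3 and DCX, and NEFL, ELAVL3, ELAVL4, STMN2, STMN4 and CRMP1 did not pass the filter. TUBB3, MAP2, DCX, STMN2 and STMN4 also stand in other lists here. Of the 7 tested, 4 were higher and 0 lower in shIMPDH1 (20.6% and 22.8% of all genes). In shIMPDH2, 1 was higher and 1 lower (18.6% and 19.9% of all genes). The median log2 changes were 0.18 and −0.06. The intermediate filament INA rose from 1.07 to 3.24 CPM in shIMPDH1 (log2 1.58, adjusted p = 1.97e-09) and was at 1.03 in shIMPDH2. The synaptic protein SNAP25 rose by 0.18 in shIMPDH1 (adjusted p = 0.00501) and fell by 0.37 in shIMPDH2 (adjusted p = 3e-06), while the vesicle protein SYP rose in both, by 0.97 and 0.64 (adjusted p = 1.52e-05 and 0.00299). GAP43 was called higher in shIMPDH1, by 0.58 (SE 0.22, adjusted p = 0.0327), on 30 to 53 counts per library in shControl and shIMPDH1. That call was not recomputed with the alternative settings. In shIMPDH2 GAP43 was at −0.16, not called. TUBB3 and MAP2, both under 1 CPM, were at −0.52 and −0.64 in shIMPDH1, and SYT1 was at 0.02, none called. In shIMPDH2 TUBB3 was at −0.69, MAP2 at 0.41 and SYT1 at 0.19, also not called. SNAP25 made up most of the summed level, at means of 16.4, 18.6 and 12.7 CPM in the 3 groups. The part of the neuronal markers in the STMN3 values was not tested.

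Levels of different genes were compared per kilobase of exons, with the union of all annotated exons of a gene as its length. On that scale TUBB was highest in shControl at 649 ± 20.9 CPM per kb (SD, n = 3), followed by TUBB4B at 493 ± 8.63 and TUBA1B at 456 ± 13.4. Further down came TUBA1C at 133 ± 3.08, STMN1 at 67.4 ± 3.98 and TUBB6 at 49.5 ± 0.875. TUBB2A at 17.9 ± 0.261 and TUBB2B at 17.3 ± 0.488 overlapped, and STMN3 at 4.05 ± 0.332 and TUBA1A at 1.18 ± 0.0873 were lowest. The order of the upper genes turned with the length used. With the principal transcript as length, an alternative chosen after seeing the data, TUBA1B was highest at 1001 ± 29.5 CPM per kb, above TUBB at 817 ± 26.3 and TUBB4B at 636 ± 11.1. STMN1, whose exon union is 6261 bases and whose principal transcript is 1137, then stood at 371 ± 21.9, above TUBA1C at 205 ± 4.75, and TUBB6 stood at 98.7 ± 1.74. With the longest transcript TUBB stayed highest at 751 ± 24.2, TUBB4B at 512 ± 8.95 and TUBA1B at 509 ± 14.99 overlapped, and STMN1 at 143 ± 8.45 was below TUBA1C at 205 ± 4.75. STMN3 and TUBA1A were lowest with each of the 3 lengths.

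The makeup of the tubulin families changed by a few percentage points at most, and that of the stathmins by more. TUBB made up 52.9% of the length-scaled β-tubulin members in shControl, 50.7% in shIMPDH1 and 55.3% in shIMPDH2, and TUBB4B made up 40.2%, 42.6% and 38.04%. TUBB6 went from 4.03% to 3.26% in shIMPDH1 and was at 4.06% in shIMPDH2. TUBB2B went from 1.41% to 0.926% in shIMPDH2, and TUBB2A from 1.46% to 2.09% in shIMPDH1. Among α-tubulins TUBA1B held 77.3% in shControl, 79.6% in shIMPDH1 and 78.6% in shIMPDH2. STMN3 made up 5.68% of the pair of stathmins in shControl, 15.6% in shIMPDH1 and 3.96% in shIMPDH2. These shares rest on the long exon union of STMN1: they were 3.53%, 10.1% and 2.44% with the longest transcripts and 1.45%, 4.33% and 0.996% with the principal ones, highest in shIMPDH1 each time.

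The summed β-tubulin level moved more than the summed α-tubulin level. Summed β members gave 3423 to 3559 CPM in shControl, 2784 to 2861 in shIMPDH1 and 3037 to 3153 in shIMPDH2. Summed α members gave 2179 to 2301, 2084 to 2145 and 2158 to 2226 CPM. Per kilobase the β-to-α ratio was 2.11, 2.07 and 2.07 in the shControl libraries, 1.81, 1.83 and 1.81 in shIMPDH1 and 1.86, 1.92 and 1.87 in shIMPDH2, so both knockdowns lay below control. The size of this ratio depended on the lengths used. With principal transcripts it was 1.34, 1.31 and 1.30 in shControl, 1.13, 1.14 and 1.13 in shIMPDH1 and 1.17, 1.21 and 1.18 in shIMPDH2, again lower in both knockdowns.

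The other genes of the tubulin families and of the stathmins were scarce. TUBA4A, an α-tubulin of muscle, brain and platelets, was at 12.8, 13.99 and 13.4 CPM in shControl, 10.7, 10.7 and 11.04 in shIMPDH1, and 17.5, 18.3 and 17.3 in shIMPDH2. It fell by 0.31 in shIMPDH1 (SE 0.057, adjusted p = 6.28e-05) and rose by 0.40 in shIMPDH2 (SE 0.053, adjusted p = 7.68e-07), with no overlap between any 2 groups. The neural isotype TUBB4A went from a mean of 1.04 CPM to 0.587 in shIMPDH2 (log2 −0.81, adjusted p = 0.00342). TUBA8, TUBB3 and TUBB8 were under 1 CPM and were not called against shControl. STMN2, STMN4, TUBB1 and 5 α-tubulin genes did not pass the filter.

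Counts in this and the following lists stand beside 20.6% of all genes called higher and 22.8% lower in shIMPDH1. In shIMPDH2 these shares were 18.6% and 19.9%. The list counts are a description. Among 13 genes of tubulin mRNA control and the CCR4-NOT complex, 2 were called higher and 3 lower in shIMPDH1 (median log2 change 0.02), and 3 higher and 5 lower in shIMPDH2 (median −0.01). TTC5, the factor that reads the nascent chain, was at 23.1, 22.7 and 23.4 CPM in the 3 groups and was not called, nor was SCAPER. CNOT11, the subunit that SCAPER contacts, was at 273, 274 and 277 CPM in shControl, 230.1, 224 and 223 in shIMPDH1, and 193, 201 and 207 in shIMPDH2. It fell by 0.28 (adjusted p = 1.14e-09) and by 0.45 (adjusted p = 1.04e-13). CNOT6, a deadenylase subunit, fell by 0.18 (adjusted p = 0.000522) and by 0.76 (adjusted p = 1.66e-14). Its close relative CNOT6L went both ways: it fell by 0.29 in shIMPDH1 (adjusted p = 0.000252) and rose by 0.17 in shIMPDH2 (adjusted p = 0.0161), the rise not called without the second shControl library (0.11).

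New tubulin chains are folded by prefoldin, the chaperonin CCT and a set of tubulin cofactors. Of 15 chaperonin and prefoldin genes, 3 were higher and 4 lower in shIMPDH1, and 4 higher and 1 lower in shIMPDH2 (medians 0.00 and 0.04), the largest of those named being PFDN5 in shIMPDH1 at 0.20 (adjusted p = 7.86e-07). Of 7 cofactor genes, 0 were higher and 4 lower in shIMPDH1, and 0 were higher and 2 lower in shIMPDH2 (medians −0.09 and −0.03). The lower ones in shIMPDH1 were TBCEL, which promotes tubulin breakdown (log2 −0.43, adjusted p = 4.11e-08), TBCA, which binds β-tubulin (−0.22, adjusted p = 2.4e-05), TBCB, which binds α-tubulin (−0.20, adjusted p = 2.53e-05), and TBCD (−0.09, adjusted p = 0.0288), the last not called by DESeq2 or without shControl library 1 or 2 or shIMPDH1 library 1 or 2. Those in shIMPDH2 were TBCC (−0.35, adjusted p = 1.04e-05) and TBCE (−0.12, adjusted p = 0.00764), the latter not called without the second shControl library (−0.09).

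Genes that bind and stabilise microtubules moved both ways. Of 19 tested, 8 were higher and 7 lower in shIMPDH1 (median −0.07), and 5 were higher and 5 lower in shIMPDH2 (median 0.00). MAP7, a recruiter of kinesin-1, was at 3.49, 3.01 and 3.37 CPM in shControl, 2.36, 2.53 and 2.16 in shIMPDH1, and 0.998, 0.788 and 0.801 in shIMPDH2, a log2 change of −1.92 (SE 0.15, adjusted p = 5.13e-11) in the last group. MAP1A fell by 1.08 there (adjusted p = 3.83e-13). The microtubule polymerase CKAP5 rose in both knockdowns, by 0.28 and 0.27 (adjusted p = 1.03e-09 and 2.94e-09). MAP4, the main such protein of non-neuronal cells, fell by 0.31 in shIMPDH1 (adjusted p = 3.44e-10) and rose by 0.26 in shIMPDH2 (adjusted p = 7.97e-09).

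Of 13 depolymerising and severing genes, 7 were higher and 2 lower in shIMPDH1, and 3 were higher and 1 lower in shIMPDH2 (medians 0.09 and 0.06). KATNAL1, a severing ATPase of the katanin family, rose by 0.35 (adjusted p = 0.000206) and by 0.92 (adjusted p = 1.33e-11). Of 21 tubulin-modifying enzymes, 3 were higher and 9 lower in shIMPDH1, and 3 were higher and 6 lower in shIMPDH2 (medians −0.18 and −0.06). The glutamylase TTLL5 fell by 0.50 (adjusted p = 2.96e-09) and the deglutamylase AGTPBP1 by 0.36 (adjusted p = 2.52e-07) in shIMPDH1, and TTL, which restores the terminal tyrosine of α-tubulin, rose by 0.17 in shIMPDH2 (adjusted p = 8.53e-05). Of 13 genes of γ-, δ- and ε-tubulin and the ring complex that nucleates microtubules, 3 were higher and 1 lower in shIMPDH1, and 4 were higher and 4 lower in shIMPDH2 (medians 0.03 and 0.00). TUBGCP6 was higher by 0.22 in both (adjusted p = 0.000127 and 0.000133). MZT2B was lower by 0.25 in shIMPDH2 (adjusted p = 4.25e-06) and was not called in shIMPDH1.

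Of 11 kinases listed as acting on STMN1, 1 was higher and 5 lower in shIMPDH1, and 1 was higher and 7 lower in shIMPDH2 (medians −0.03 and −0.12). PRKACA, the catalytic subunit of protein kinase A, fell by 0.35 and 0.21 (adjusted p = 2.59e-08 and 7.82e-05), and the mitotic kinases AURKB and PLK1 fell by 0.18 and 0.17 in shIMPDH2 (adjusted p = 5.9e-06 and 1.09e-05). Of 25 mitosis and proliferation genes, CDK1, AURKB and PLK1 of which also stand among the kinases, 2 were higher and 17 lower in shIMPDH1, and 2 were higher and 16 lower in shIMPDH2 (medians −0.10 and −0.11). Their summed level was 5625 to 5880.1 CPM in shControl, 5147 to 5321 in shIMPDH1 and 5335 to 5401 in shIMPDH2. These sums were lower in both knockdowns, as were STMN1 and most tubulins, and their part in those values was not tested. The 12 hepatocyte markers summed to 38066 to 40304 CPM in shControl, 44379.5 to 45819 in shIMPDH1 and 46430.3 to 47639 in shIMPDH2. AFP had a large part in these sums, at means of 9418, 12653 and 11836 CPM in the 3 groups. ALB was at means of 8801, 9335 and 10946 CPM. One by one, 8 of the 12 were higher and 1 lower in shIMPDH1, and 9 were higher and 3 lower in shIMPDH2 (medians 0.11 and 0.27). The lower ones were the fibrinogen chain FGB in shIMPDH1 (−0.14, adjusted p = 0.000625), and in shIMPDH2 the apolipoprotein APOA1 (−0.13, adjusted p = 0.000701), transferrin TF (−0.16, adjusted p = 6.67e-06) and the transcription factor HNF4A (−0.08, adjusted p = 0.00864), the last not called without the second shControl library (−0.06). The part of the hepatocyte markers in the values of the 10 genes was not tested either.

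**Figure D3:**
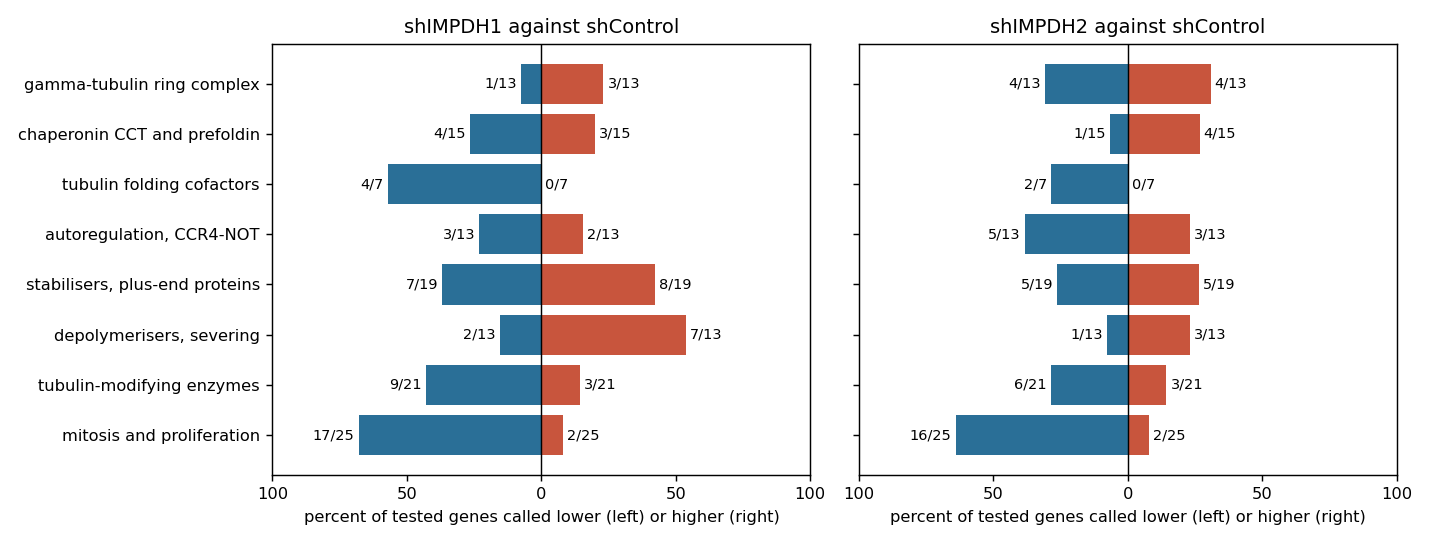
Share of tested genes in 8 lists called higher (right, red) or lower (left, blue) against shControl, in percent, for shIMPDH1 and shIMPDH2, with the number called of the number tested beside each bar. Tubulin folding cofactors show 4 of 7 lower in shIMPDH1 and 2 of 7 in shIMPDH2, with 0 higher in either. Over all genes tested, 20.6% were called higher and 22.8% lower in shIMPDH1, and 18.6% and 19.9% in shIMPDH2.

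For each of the 10 genes the most similar profiles over the 9 libraries were sought by the Pearson correlation of log2 CPM among 11074 other genes whose log2 CPM averaged 2 or more (11075 for TUBA1A). The 9 libraries form 3 groups, so these values mainly describe shared group order and carry no test. TUBB6 was nearest to BNIP3L (0.999) and FLNA (0.997), TUBB to STK38 and CLU (both 0.993), and TUBA1C to RNF157 (0.991) and H3F3B (0.988). TUBB2B was nearest to ARHGAP19 (0.997) and KLF5 (0.995), TUBB4B to CDKN1A (0.992) and TSPAN18 (0.989), and STMN1 to BRD7 (0.979) and H2AFV (0.977). STMN3 was nearest to FST (0.997) and EFHD1 (0.996), and TUBB2A to COPE (0.982) and PPP1R16A (0.979). TUBA1A was nearest to ZNF12 (0.959) and SLC35B4 (0.955), and TUBA1B, whose groups overlapped, to ZC3H10 (0.941) and PRDM4 (0.886).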

How the data were processed

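mRNA of 9 Huh7 libraries was sequenced with a stranded kit, per the labels' protocols. The deposited table holds raw read counts per gene symbol for 58684 genes. Per the submitters' processing notes, Trim Galore, cutadapt, STAR and featureCounts were used with build hg38. Versions, read length, annotation and the strand setting of the counting were not given in the sources used here. Groups were taken from the sample titles.

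Counts were analysed with edgeR 4.0.16 in R 4.3.3. Genes were filtered with filterByExpr by group, leaving 17396, scaled with TMM and fitted in 1 quasi-likelihood model over the 9 libraries with 3 contrasts. Adjusted p-values are Benjamini-Hochberg values over the 17396 genes, and a call needs one under 0.05. The common biological coefficient of variation was 0.0268. Pathway and marker lists were written from general knowledge. The 10 genes and the lists were chosen with earlier results of these data known, so adjusted p-values of list genes serve as a description. Named list genes are at most the 4 with the smallest p called in each comparison, with all tested tubulins and stathmins outside the 10; the neuronal and hepatocyte markers, MKI67, SVBP, CNOT6L, the STMN3 neighbours, TTC5 and SCAPER were named outside that rule.

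Lengths, coding starts and overlaps come from GENCODE release 29 (GRCh38), which names 37075 of the 58684 symbols and all 10 members. Promoters come from RefSeq (GRCh38.p14). The fit was also run on counts simulated from its own means and spread with planted changes. Such a run cannot show that the model suits these libraries. DESeq2 1.42.0, other scalings, filters and single-library omissions were tried as alternatives.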

Additional observations from a re-analysis of the deposited data

Results flagged for a closer look

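Among the 10 genes, the targets and all tested genes of the lists, 15 were called in opposite directions in the 2 knockdowns with a called difference between them (edgeR quasi-likelihood test, shIMPDH2 minus shIMPDH1 on the log2 scale). Over all genes tested, 43.4% were called in shIMPDH1, 38.4% in shIMPDH2 and 44.0% between the knockdowns. The share of all genes that meets the joint rule is not given here, so nothing is read from the number 15. STMN3 was picked with its change known, and its difference of −2.26 is a description. IMPDH1 differed by 1.52 and IMPDH2 by −1.32, each being the target of 1 of the hairpins. TUBA4A differed by 0.71 (adjusted p = 2.99e-11), the reverse of STMN3, with −0.31 in shIMPDH1 and 0.40 in shIMPDH2. The microtubule-associated protein MAP4 differed by 0.56 (adjusted p = 8.54e-16), and the deadenylase subunit CNOT6L by 0.46 (adjusted p = 2.63e-07). The tubulin deacetylase HDAC6 differed by 0.35 (adjusted p = 1.89e-09), with −0.22 in shIMPDH1 and 0.13 in shIMPDH2. The tubulin ligase relative TTLL12 differed by −0.39 (adjusted p = 1.02e-10), with 0.24 and −0.15. The mitotic kinesin KIF18A differed by −0.37 (adjusted p = 1.01e-07), with 0.16 and −0.21. The prefoldin subunit PFDN1 differed by 0.26 (adjusted p = 8.41e-06), with −0.11 and 0.14. SVBP, the partner of the vasohibin tubulin carboxypeptidases, differed by 0.46 (adjusted p = 1.22e-05), with −0.25 and 0.22. The synaptic protein SNAP25 differed by −0.55 (adjusted p = 1.86e-09), with 0.18 and −0.37, in the direction of STMN3. The proliferation marker MKI67 differed by 0.21 (adjusted p = 5.45e-08), with −0.10 and 0.11. Of the hepatocyte markers, FGB differed by 0.34 (adjusted p = 3.73e-10), with −0.14 and 0.21, and HNF4A by −0.20 (adjusted p = 6.39e-08), with 0.12 and −0.08. For PFDN1, SVBP, CNOT6L and HNF4A a change against shControl lost its call when single libraries were left out, and their differences between the knockdowns kept theirs. Without 1 library these changes were −0.08 or −0.09 for PFDN1 and −0.19 for SVBP in shIMPDH1, and in shIMPDH2 0.09 for PFDN1, 0.18 to 0.20 for SVBP, 0.11 for CNOT6L and −0.06 for HNF4A.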

How the results depend on the processing

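Of 450 recomputed log2 changes of the 10 genes, 431 kept direction and side of the threshold. In 12 the call was lost: TUBB4B and STMN1 between the knockdowns, each with library totals (−0.04 and −0.06) and in 5 omissions of a library. In 2 a call was gained: TUBA1B in shIMPDH1 without the first shControl library (−0.06), and between the knockdowns with library totals (0.05). In 5 the sign turned, none of them called: TUBA1B in shIMPDH2 with library totals (0.01) or without the second shControl library (0.01), TUBB2A in shIMPDH2 without the third shIMPDH2 library (−0.02), and TUBA1A between the knockdowns without the first shIMPDH1 library (0.03) or the third shIMPDH2 library (0.03). Leaving out 1 library gave −0.02 to 0.04 for TUBB2A in shIMPDH2 and −0.15 to 0.03 for TUBA1A between the knockdowns. The 126 changes of list genes recomputed were all called in the main fit, and most were chosen for the smallest p in their list. Keeping a call and a direction was thus favoured in advance. Of the 126, 13 lost a call in at least 1 alternative and none turned. The 13 were TBCD, TUBD1, PFDN1 and SVBP in shIMPDH1, KIF2C, PFDN1, TBCE, FIGN, SVBP, CNOT6L and HNF4A in shIMPDH2, and TUBB8 and MZT2A between the knockdowns. The causes were not tested.

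Leaving out 1 library gave 6511 to 7829, 5744 to 6683 and 6812 to 7857 called genes for shIMPDH1, shIMPDH2 and the difference, and 9 to 10, 8 and 6 to 8 called members. No pairing by replicate number was seen. Correlations of same-numbered deviations ranged from −0.086 to 0.089, and those of different-numbered ones from −0.084 to 0.107. Such values cannot exclude that libraries were handled in pairs. With a replicate block, 7735, 6854 and 7852 genes were called, and calls among the 10 stayed at 9, 8 and 8. The share of TUBA1B among α-tubulins was 71.1% with the longest transcript as length and 82.9% with the principal transcript, an alternative chosen after seeing the data, which put TUBB at 51.4% of β-tubulins. At 120 counts or more per library, depth limits TUBA1A most.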
